A study of Mus musculus with 9 samples.

Results

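The comparison described here set m-ICcl2 cells exposed to lipopolysaccharide (LPS) for 6 h against unstimulated cells of the same line, on 3 arrays each, chosen by their titles as 6 of the 9 arrays of the series. m-ICcl2 is a single mouse cell line, labelled C57BL/6, that was derived from fetal small intestinal tissue and carries a transgene for the SV40 large T antigen, so both groups share that oncogene, which binds and inactivates p53 and the retinoblastoma protein. LPS, the endotoxin of Gram-negative bacteria, came from E. coli strain D31m4 and was used at 100 ng/mL. The remaining 3 arrays are from cells given LPS for 6 h and then 90 h of LPS-free medium (called tolerant in the series, 96 h after LPS was first added), and enter only the estimate of the spread and some levels given for reference. The labels number the 3 biological replicates of a condition but do not tell what links equal numbers, so p-values measure the spread between these arrays.

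In epithelial cells LPS is bound by TLR4 with its partner MD-2 (Ly96), helped by CD14. The receptor signals through MyD88 and IRAK and TRAF6 proteins to the IKK kinases, which release NF-kappa-B from I-kappa-B proteins to switch on chemokine and defence genes. Many of the genes that NF-kappa-B switches on encode brakes on the same pathway, such as I-kappa-B alpha and the ubiquitin-editing enzyme A20. Intestinal epithelium lies beside large numbers of bacteria, and its chemokines draw neutrophils and monocytes to the wall of the gut.

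Levels are log2 of the deposited intensity, 1 probe set per gene. Of 18193 genes, 9431 reached log2 4 on at least 3 of the 9 arrays and were tested. Differences are 6 h LPS minus unstimulated on that scale, where 1 is a 2-fold change. They were tested with limma in an unpaired fit and in a paired fit that takes the replicate number as a block, with Benjamini-Hochberg adjustment and a threshold of 0.05. Both fits give the same difference and only its error changes. "Rose" and "fell" below refer to the paired test unless the unpaired one is named.

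The 3 pairs did not move alike, which touches every count below. The median difference over all 9431 genes was -0.19 in replicate 1, -0.18 in replicate 2 and 0.03 in replicate 3, and -0.11 for the mean, so small falls are to be read against that shift. Deviations from the condition means correlated across genes at 0.759, 0.411 and 0.157 between the unstimulated and 6 h arrays of replicates 1, 2 and 3. The unstimulated array of replicate 3 and the 6 h array of replicate 2 correlated at 0.731, and unstimulated replicate 2 with 6 h replicate 3 at 0.497, so between replicates 2 and 3 the crossed pairs deviated together more than the same-numbered ones. Both 6 h arrays of replicates 2 and 3 correlated negatively with unstimulated replicate 1, so replicate 1 stood apart in this measure. The 3 deviations of a condition sum to 0 for each gene, so the signs across replicate numbers are partly built in. For beta-actin, the excess of the 3' over the 5' control probe set (log2), a sign of RNA integrity and labelling, was 0.72, 1.02 and 1.16 on the unstimulated and 0.40, 1.35 and 1.36 on the 6 h arrays. It was lower with LPS in replicate 1 and higher with LPS in replicates 2 and 3. The 18S ribosomal RNA control (its 5' probe set) lay at 7.27, 3.86 and 3.38 without and 8.08, 5.76 and 4.10 with LPS, higher with LPS in every pair and highest in replicate 1 of both groups. The part of either in the results was not tested.

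The unpaired test called 6 genes higher after 6 h of LPS (0.0636% of genes tested) and none lower (0.0%), with 2163 genes at an unadjusted p under 0.05 in either direction. Of these 6 genes, 4 encode chemokines. Cxcl5, an attractant of neutrophils, lay at 6.16, 5.83 and 5.60 on the unstimulated arrays and at 12.01, 12.01 and 11.82 on the LPS arrays, a 67.7-fold rise. Cxcl1, which acts on the same neutrophil receptor, lay at 7.38, 7.62 and 7.36 and at 11.65, 11.33 and 11.71, a 17.3-fold rise (limma adjusted p = 2.24e-05). The 6 arrays fell into groups without overlap for each of these genes. Cxcl2, likewise a neutrophil attractant, went from 3.43, 2.86 and 3.52 to 7.42, 7.42 and 7.87. Ccl2, which draws monocytes, went from 3.22, 3.34 and 3.66 to 7.41, 7.80 and 7.78. Both were below log2 4 on every unstimulated array, so their rises are bounds against log2 4, at least 11.9-fold for Cxcl2 and at least 12.7-fold for Ccl2. In bulk RNA, more cells with a transcript and more transcript per cell cannot be told apart.

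The remaining unpaired calls were Neurl3 and Nfkbiz. Neurl3, a member of the neuralized family of ubiquitin ligases, went from 2.88, 2.54 and 2.54 to 4.93, 5.41 and 5.31, at least 2.33-fold, with an adjusted p of 0.000329 in limma's unpaired fit. Nfkbiz, which encodes an atypical nuclear I-kappa-B protein that acts on secondary response genes, went from 8.83, 8.06 and 8.72 to 11.08, 10.86 and 10.65, 5.0-fold, with an adjusted p of 0.00621 in the same fit. Its 3 probe sets disagreed in size, from 0.40 to 2.60. Across the 6 genes the median difference was 4.09, 4.09 and 4.23 in replicates 1, 2 and 3. Nfkbiz had its smallest difference in replicate 3, at 1.92 against 2.25 and 2.79 in the others, and so by a little had Ccl2. With each array left out in turn, Ccl2, Cxcl1, Cxcl2, Cxcl5 and Neurl3 were called in 9 of 9 unpaired fits and Nfkbiz in 8, missing the threshold without 6 h LPS replicate 2 (limma adjusted p = 0.0505).

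The 2-fold mark in each pair, rather than a p-value, gave a wider core. In all 3 same-numbered pairs, 16 genes were at least 2-fold higher (0.17% of genes tested) and 2 at least 2-fold lower (0.0212%), a set drawn up after the values were seen and given without a test of its own. Beside the 6 genes above it held Casp4, Cebpd, Tnfaip3, Tlr2, Frk, Rictor, Ap4e1, Lcn2, Edn1 and Ugcg. The 16 genes were at least 2-fold higher in every pair also after median centring. Quantile normalization took Tlr2, Frk, Edn1 and Ugcg under the mark in at least 1 pair, and the mean of all probe sets of a gene did so for Cebpd, Rictor, Ap4e1 and Ugcg. Median centring added 1 gene, Chek1, for a set of 17, and the mean of all probe sets added 3 genes, Nfkbia among them, for a set of 15.

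**Figure D1:**
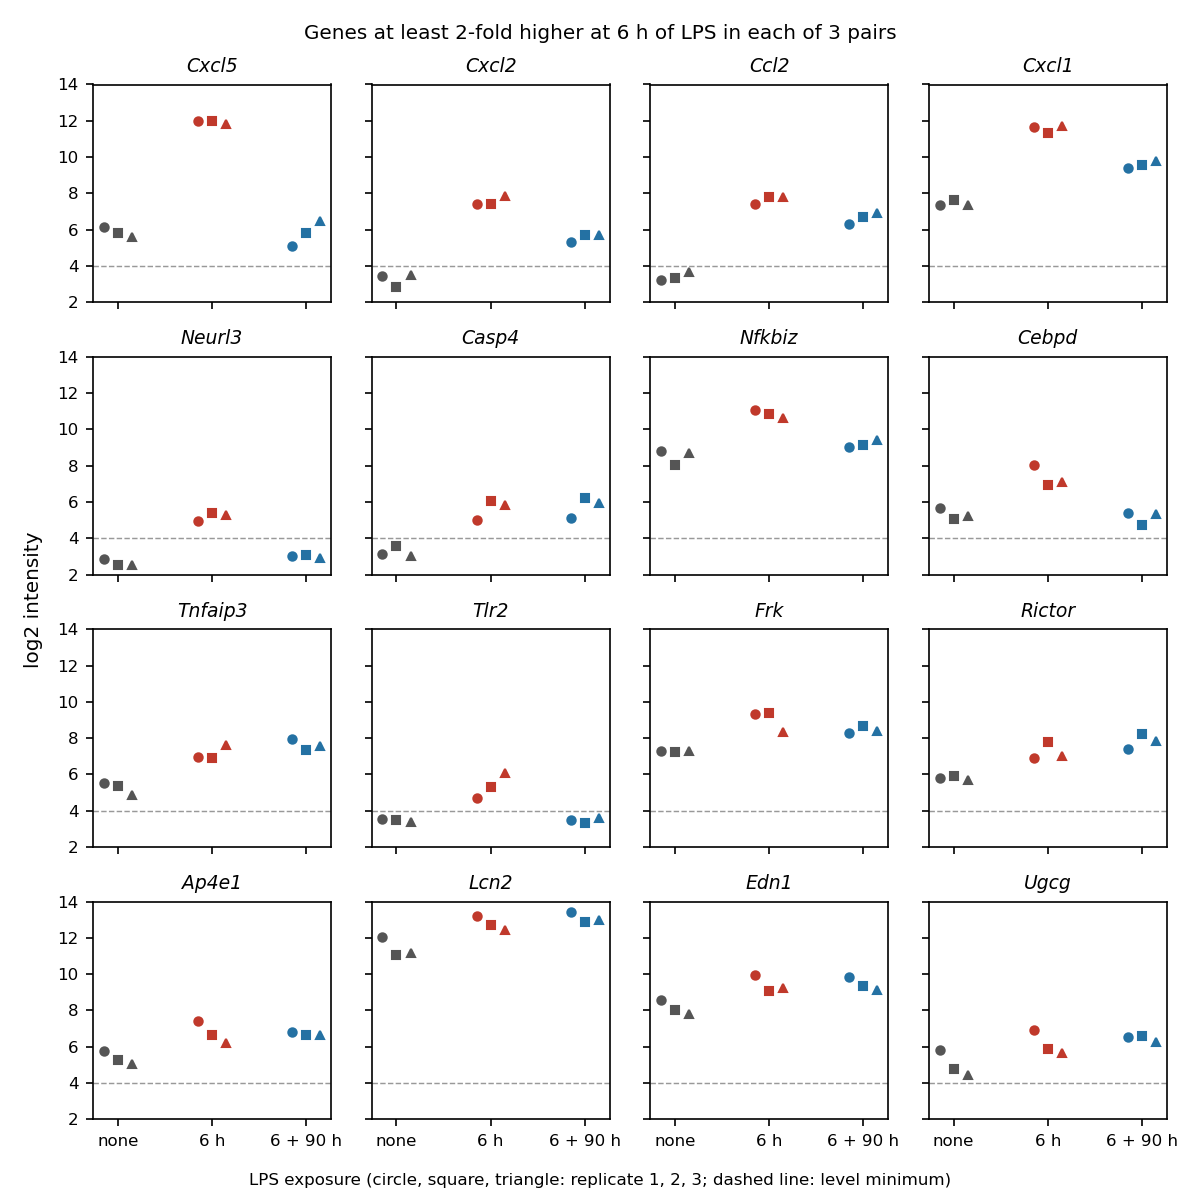
Log2 intensity of the 16 genes at least 2-fold higher at 6 h of LPS in each pair, for unstimulated cells (none, grey), 6 h LPS (red) and tolerant cells (6 + 90 h, blue). Circles, squares and triangles are replicates 1, 2 and 3, and the dashed line is the level minimum of log2 4. The 6 h points lie above the unstimulated points in every panel except Ugcg, where replicate 1 unstimulated (5.84) lies above replicate 3 with LPS (5.63).

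Promoter letters of this core are shown because its members, chosen for rising in every pair, include classic NF-kappa-B genes. RefSeq start sites (GRCm38.p6, from 250 bases before to 50 after the start) were matched for 12 of the 16. The windows were searched on both strands for the kappa-B consensus, after several other spellings of that site had been tried. It was in 6 of the 12 (50.0%), namely Cxcl1, Cxcl2, Neurl3, Casp4, Tnfaip3 and Tlr2, against 6.55% of all genes in the table and 7.88% of the tested genes that matched. Among all genes that rose in the paired test 7.65% held it, among those that fell 8.35%, and among those that rose by at least 2-fold 9.38% (18 of 192). The set was drawn up after its values were seen, and the spelling was kept after others had been tried. The share of 50.0% is therefore descriptive and no test, and shares for the other spellings are not given. A match describes letters, not a bound site, and the part of NF-kappa-B in these rises was not tested. For the 5 genes with a match in the 150 bases before the start, those bases follow, 5′ to 3′ on the gene's own strand, with matches on either strand in capitals. They come from chr5:90891095-90891244 (plus strand) for Cxcl1, chr5:90903749-90903898 (plus) for Cxcl2, chr1:36273426-36273575 (minus) for Neurl3, chr9:5308699-5308848 (plus) for Casp4 and chr10:19015411-19015560 (minus) for Tnfaip3.
Cxcl1: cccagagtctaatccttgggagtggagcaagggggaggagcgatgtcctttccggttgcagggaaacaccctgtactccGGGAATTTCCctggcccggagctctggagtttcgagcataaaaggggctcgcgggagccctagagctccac
Cxcl2: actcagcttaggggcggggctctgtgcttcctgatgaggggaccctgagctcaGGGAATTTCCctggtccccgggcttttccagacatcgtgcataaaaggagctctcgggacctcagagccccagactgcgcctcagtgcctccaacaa
Neurl3: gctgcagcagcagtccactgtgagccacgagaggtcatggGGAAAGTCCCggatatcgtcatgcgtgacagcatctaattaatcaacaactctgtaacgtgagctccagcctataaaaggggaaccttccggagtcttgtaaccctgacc
Casp4: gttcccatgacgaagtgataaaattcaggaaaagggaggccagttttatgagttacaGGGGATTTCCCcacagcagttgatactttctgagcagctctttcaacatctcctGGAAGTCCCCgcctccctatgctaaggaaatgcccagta
Tnfaip3: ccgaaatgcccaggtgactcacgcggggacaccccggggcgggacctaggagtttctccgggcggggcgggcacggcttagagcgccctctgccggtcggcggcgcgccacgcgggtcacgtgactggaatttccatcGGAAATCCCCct
Counted from the start site, the match of Cxcl1 began at -71, that of its neighbour Cxcl2 at -97, that of Neurl3 at -110 and that of Tnfaip3 at -12. Casp4 held 3 matches, of which those at -93 and -92 overlap and the last lies at -39.

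Casp4, which encodes caspase-11, the mouse caspase that binds LPS inside the cell, went from 3.15, 3.59 and 3.02 to 5.03, 6.08 and 5.86. That is at least 3.15-fold, with an adjusted p of 0.0624 unpaired and 0.00245 paired in limma. Cebpd, a transcription factor of the acute-phase response, went from 5.67, 5.07 and 5.21 to 8.02, 6.95 and 7.12, 4.12-fold. Its adjusted p was 0.07 unpaired and 0.00245 paired in limma. Each rose in the paired test alone. For Cebpd replicate 1 was the highest array of both groups.

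Tnfaip3, the gene of A20, lay at 5.54, 5.39 and 4.88 without and at 6.96, 6.90 and 7.60 with LPS, and another of its probe sets gave a smaller difference of 0.89. Tlr2, the receptor for bacterial lipoproteins, lay at 3.57, 3.51 and 3.40 and rose to 4.72, 5.28 and 6.07, at least 2.56-fold. For both genes the difference was largest in replicate 3. Frk, a Src-related tyrosine kinase of epithelial cells, went from 7.29, 7.22 and 7.28 to 9.30, 9.39 and 8.37, with its smallest difference in replicate 3. Lcn2, which encodes the iron-siderophore binder lipocalin 2, was already high at 12.06, 11.07 and 11.17 and rose to 13.23, 12.70 and 12.46, 2.57-fold.

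Of the 4 genes of the core chosen only for passing 2-fold in every pair, Edn1 encodes the peptide endothelin 1. It went from 8.58, 8.02 and 7.80 to 9.95, 9.06 and 9.22 (adjusted p = 0.00928 in limma's paired fit). Rictor, a subunit of mTOR complex 2, went from 5.82, 5.92 and 5.69 to 6.89, 7.76 and 7.03. Ap4e1, a subunit of the adaptor complex AP-4, went from 5.77, 5.25 and 5.06 to 7.45, 6.64 and 6.22. Ugcg, the enzyme that makes glucosylceramide, went from 5.84, 4.78 and 4.47 to 6.93, 5.87 and 5.63. The pair-by-pair difference of Ugcg lay near 1.1 in all 3 pairs although the arrays of its groups overlapped.

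The paired test called far more genes than these. It called 1092 genes higher (11.6%) and 1175 lower (12.5%), 2267 in all (24.0%), of which 237 rose (2.51%) and 18 fell (0.191%) by at least 2-fold. Most of these calls lay close to the threshold. Of the 2267, 2248 (99.2%) had an adjusted p between 0.02 and 0.05, and 811 differed by less than 1.5-fold. The 9 calls with an adjusted p under 0.01 in limma's paired fit were all higher, namely Ccl2, Cxcl1, Cxcl2, Cxcl5, Neurl3, Casp4, Cebpd, Nfkbiz and Edn1. In 1523 of the 2267 the 3 arrays of one condition lay beyond all 3 of the other. Over all genes tested, the LPS arrays lay wholly above the unstimulated ones in 1212 (12.9%) and wholly below in 1248 (13.2%).

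The breadth of the paired response changed with the arrays fitted. Fits on fewer arrays also have fewer residual degrees of freedom, 2 rather than 4 for the paired fit on the 6 arrays compared. The part of that in the counts was not tested. Fitted on the 6 arrays compared, without the tolerant ones, the paired test called 8 genes higher and 0 lower. From replicates 2 and 3 it called 6 higher and 0 lower, and without the tolerant array of replicate 2 it called 11 and 1. Without 6 h LPS replicate 3 the counts went up instead, to 1582 higher and 2465 lower in the paired and 503 and 193 in the unpaired fit. The 16 core genes were all called in the paired fit without 6 h LPS replicate 3, and 8 of them when the 6 arrays were fitted alone. The core was chosen on these same arrays, so these counts are not independent of that choice. Across 12 paired fits that left out 1 array or 1 replicate number, Ccl2, Cxcl1, Cxcl2 and Cxcl5 were called in 12, Neurl3 and Casp4 in 11, Cebpd in 10, Nfkbiz in 9 and Lcn2 in 7. Without replicate number 2 the limma adjusted p was 0.0588 for Neurl3, 0.146 for Casp4, 0.136 for Cebpd and 0.136 for Nfkbiz. Without number 1 it was 0.123 for Cebpd and 0.145 for Nfkbiz, and without 6 h LPS replicate 1 it was 0.0545 for Nfkbiz.

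**Figure D2:**
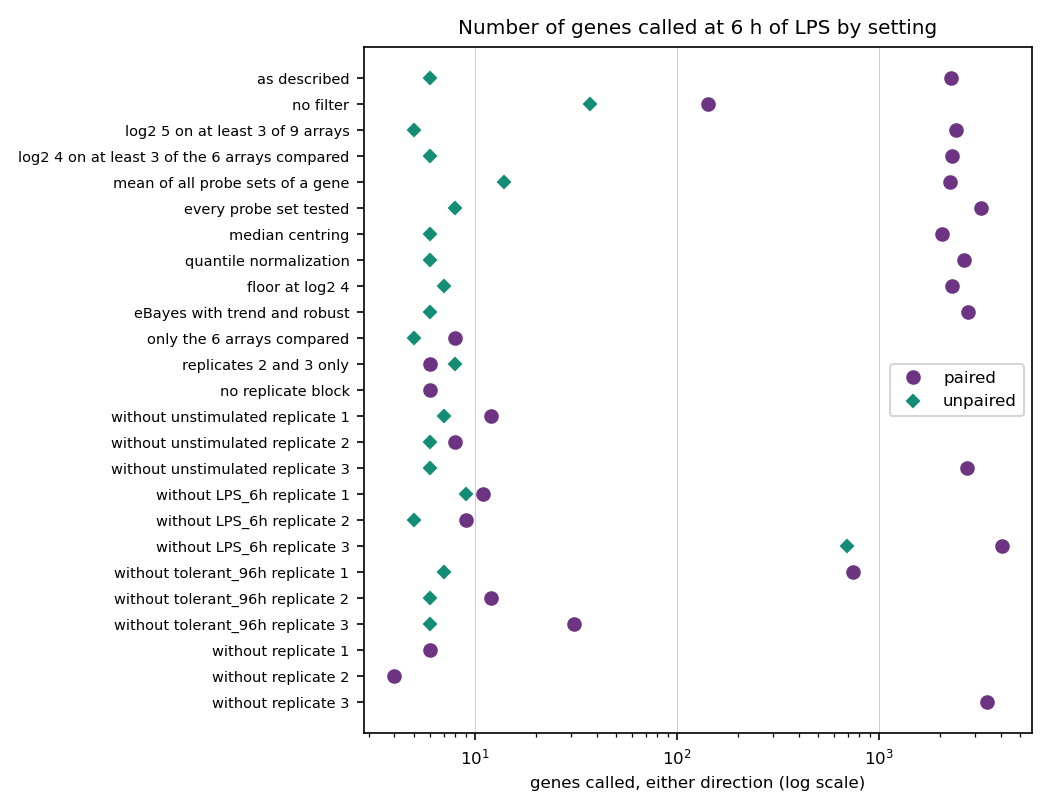
Number of genes called in either direction (log scale) by the paired fit (purple circles) and the unpaired fit (green diamonds), as described and under each other setting. A fit without a symbol was not run or had no value. The paired count lies at 2267 as described and at 8 when only the 6 arrays compared are fitted, while the unpaired count lies at 6 and 5.

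The paired rises were mostly those of replicates 1 and 2. Among the 237 genes that rose by at least 2-fold the median difference was 1.46 in replicate 1, 1.72 in replicate 2 and 0.34 in replicate 3. In 127 of the 237 the size of the replicate 3 difference, of either sign, was under 0.25 of the mean of the other pairs. In 26 it was 0 or of the opposite sign. Over all 9431 genes tested these numbers were 2735 and 2643. The 1175 genes that fell had medians of -0.80, -0.67 and -0.32, and among them these numbers were 175 and 1. By its rule the core of 16 genes is at least 2-fold higher in replicate 3 as well, and the plot of replicate 3 against the mean of replicates 1 and 2 sets it beside all other genes.

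**Figure D3:**
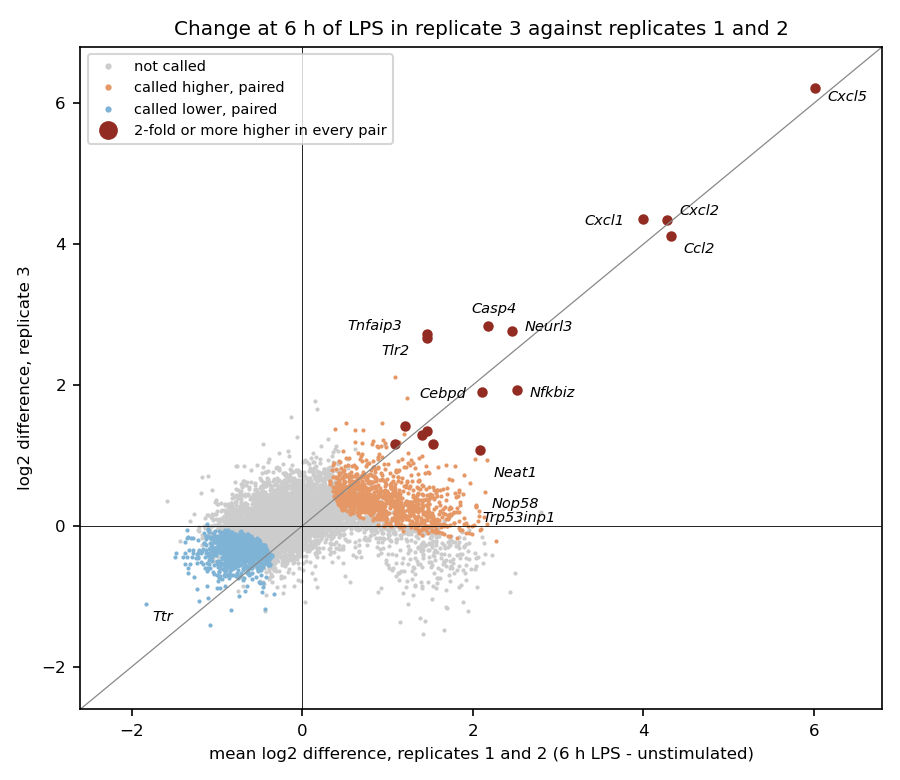
Log2 difference (6 h LPS minus unstimulated) of each of 9431 genes in replicate 3 (vertical axis) against the mean of replicates 1 and 2 (horizontal axis), with the line of equality. Dark red points are the 16 genes at least 2-fold higher in every pair, orange and blue points other paired calls and grey points the rest. The chemokines lie on the line near or above 4, while most orange points lie right of it, with replicate 3 differences near 0.

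Of 19 tested genes of the LPS receptor and its first signalling steps, 3 rose (15.8%, against 11.6% of all genes) and 1 fell, with a median of 0.19 against -0.11 for all genes. Tlr2 is given above. Tlr4, the LPS receptor itself, lay at 5.57, 5.23 and 5.71 and rose to 6.76, 7.12 and 6.22. Tab3, a scaffold of the kinase TAK1, rose with differences of 1.32, 2.02 and 0.01, so that replicate 3 showed none. Sigirr, a receptor that restrains TLR signalling, fell from 9.81, 9.37 and 9.35 to 8.96, 8.93 and 9.09. The co-receptor genes did not pass: Cd14 lay at 7.50, 7.70 and 7.38 without and at 7.49, 8.32 and 8.61 with LPS, and the groups overlapped. Ly96 lay at 4.53, 4.80 and 4.94 and at 4.30, 6.12 and 5.89, likewise overlapping. Myd88, the main adaptor, lay at 6.89, 6.13 and 6.11 and at 5.94, 5.68 and 5.90, separated but not passing (adjusted p = 0.0558 in limma's paired fit).

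Among NF-kappa-B, I-kappa-B and IKK genes 4 of 15 rose (26.7%, against 11.6% of all genes) and 1 fell (6.67%, against 12.5%). The list's median was 0.15. Nfkbia, the gene of I-kappa-B alpha, went from 11.09, 11.82 and 11.81 to 12.00, 12.69 and 12.64, with near-equal differences of 0.92, 0.86 and 0.83. Its probe sets ranged from 0.87, that of the probe set used, to 1.76. Relb, a subunit of the alternative NF-kappa-B pathway, rose with overlapping groups, and Ikbke, an IKK-related kinase, rose from 5.79, 5.27 and 5.36 to 6.16, 5.93 and 6.33. Ubiquitin editors and feedback genes of the pathway counted 8 rises (36.4%) and 0 falls in 22 (median 0.17). Beside Neurl3 and Tnfaip3 they included Birc3, the gene of cIAP2, which went from 6.58, 6.21 and 6.66 to 7.25, 7.95 and 8.05. Tax1bp1, an A20 partner, rose with a replicate 3 difference of 0.12, and its probe sets ranged from 0.355 to 1.119.

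Regulators of inflammatory mRNA decay counted 5 rises (29.4%, against 11.6% of all genes) and 0 falls in 17 (median 0.32). Zc3h12a, the gene of the ribonuclease regnase-1, lay at 3.56, 3.65 and 3.56 and rose to 4.52, 4.87 and 5.68, at least 2.03-fold and most in replicate 3. Its relative Zc3h12c went from 5.49, 5.24 and 5.68 to 7.08, 7.24 and 6.54, least in replicate 3. The RNA-binding proteins Rc3h1 (roquin-1) and Tia1 rose least in replicate 3, where their differences were 0.17 and 0.34. Probe sets of Tia1 ranged from 0.61 to 1.44.

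Secreted products other than the 4 chemokines were few. The fifth chemokine to rise, named after its values were seen, was Ppbp, which encodes a further ligand of the neutrophil receptor. It went from 7.71, 8.15 and 7.62 to 9.17, 9.09 and 8.92. The list thus counted 5 of 7 tested (71.4%, against 11.6% of all genes). Of 6 tested cytokines and growth factors 1 rose (16.7%). It was Csf1, the growth factor of macrophages, from 8.26, 8.17 and 8.33 to 9.15, 8.98 and 9.10. Tnf and Il6 were not tested, since no array of either group read above 2.45 and 2.24. Il1a, Il1b, Csf2, Csf3, Ptgs2 and Nos2 likewise stayed below log2 4 on all 6 arrays, as did Ccl20 and Icam1 with highest values of 3.52 and 3.36. At this level a probe set gives no order, so an LPS effect on these genes was not measurable here.

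Acute-phase and antimicrobial effectors counted 3 rises (37.5%, against 11.6% of all genes) and 0 falls in 8 (median 0.51). Beside Lcn2 these were Cp (ceruloplasmin) and Cfb (complement factor B). Cp went from 9.64, 10.12 and 10.31 to 10.97, 11.40 and 10.74, and its probe sets ranged from 0.64 to 1.765. Cfb went from 6.22, 6.30 and 6.30 to 7.07, 6.96 and 7.23. Cytokine and TNF family receptors counted 5 rises (27.8%) and 0 falls in 18, although the list's median was -0.05. The interleukin 13 receptor chain Il13ra1 went from 6.33, 6.29 and 6.62 to 7.58, 7.79 and 7.58 with no overlap. The death receptor Fas rose by 0.38, 1.49 and 1.46, and Osmr, the oncostatin M receptor, by 0.52, 1.23 and 1.14, both least in replicate 1. Of 19 genes of the STAT3 pathway, which shares Osmr, 4 rose (21.1%) and none fell (0.0% of the list). The feedback inhibitor Socs2 was among those that rose, by 1.59, 0.67 and 1.20. Of 25 interferon genes 3 rose (12.0%, near the share of all genes) and 1 fell. Irf1 rose by 0.83, 0.51 and 0.69 with overlapping groups and Parp9 by 0.68, 0.94 and 0.72, while Oasl1 fell by 0.55 on the log2 scale.

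**Figure D4:**
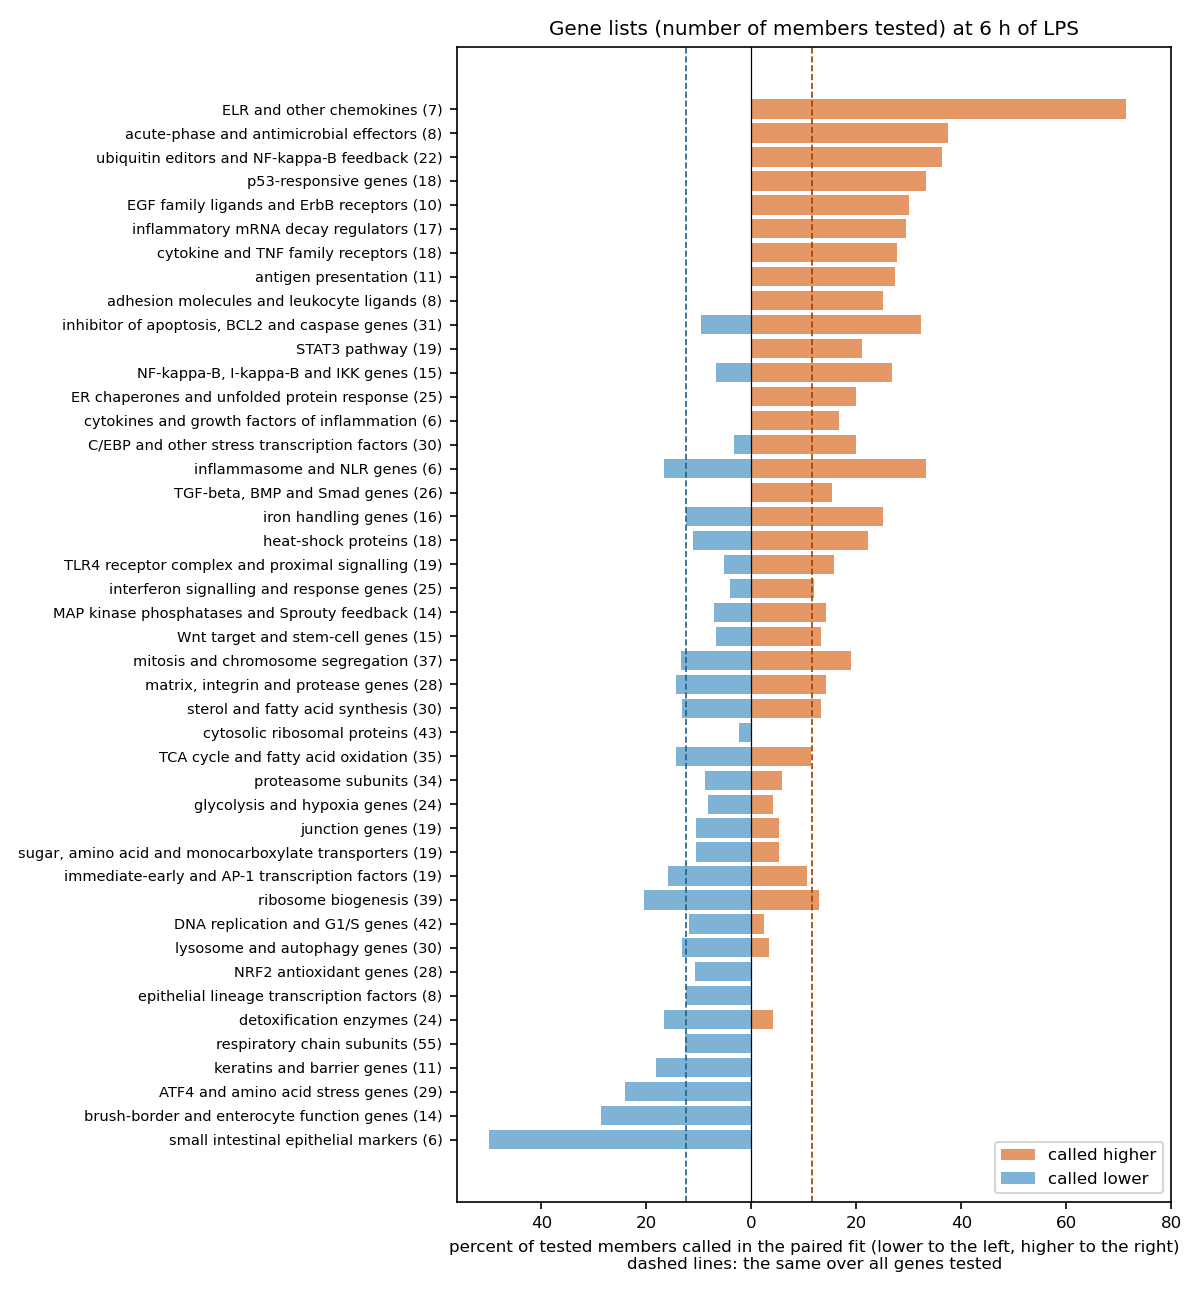
Share of each plotted list's tested members that the paired test called higher (orange, to the right) and lower (blue, to the left), in percent, with the number tested in parentheses. Dashed lines mark the same shares over all 9431 genes, 11.6% higher and 12.5% lower. Chemokines lie far right of the line at 5 of 7. Brush-border genes and small intestinal epithelial markers have calls on the lower side alone. So do the ATF4, respiratory chain, NRF2, keratin, epithelial lineage and cytosolic ribosomal protein lists.

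Genes of cell death and its control moved in both directions (median 0.05). The list counted 10 rises (32.3%, against 11.6% of all genes) and 3 falls (9.68%, against 12.5%) in 31. Casp4 led the rises. Casp1, the caspase of the inflammasome, rose from 3.42, 3.92 and 4.04 to 3.99, 5.12 and 5.17 with overlapping groups. Pmaip1, which encodes the pro-death protein Noxa, went from 6.77, 6.59 and 6.57 to 8.76, 8.65 and 7.52. Xiap, a caspase inhibitor, rose by 1.49, 1.84 and 0.01, and its probe sets ranged from -0.04 to 1.33. Of 18 genes known as p53 targets 6 rose (33.3%) and 0 fell, in cells whose large T antigen binds p53. Trp53inp1 went from 8.05, 7.81 and 8.29 to 9.91, 10.03 and 8.59, so 2 of 3 arrays carried the rise. The p53 targets Pmaip1 and Fas stand in other lists too, and Cdkn1a, the classic p53 target, did not pass, with a difference of -0.09.

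Several of the largest other rises were smallest in replicate 3. Neat1, the long noncoding RNA that builds paraspeckles, went from 9.65, 9.82 and 10.18 to 12.20, 11.61 and 11.11, with differences of 2.55, 1.79 and 0.93. Nop58, a core protein of nucleolar RNA-modifying particles, went from 6.47, 7.18 and 7.38 to 8.99, 8.95 and 7.87. Tfrc, the transferrin receptor, went from 7.97, 8.59 and 8.93 to 10.12, 10.12 and 9.44. In each the unstimulated array of replicate 3 was the highest of its group and the LPS array of replicate 3 the lowest of its own. Tet2, an enzyme that oxidizes methylated DNA, went from 2.70, 4.64 and 4.73 to 5.05, 6.23 and 5.33, and its probe sets differed by over 1.5-fold. Other rises of this shape were Hif1a (1.23, 1.17 and 0.21), the proteasome ATPase Psmc6 (1.74, 1.71 and 0.12) and the chaperone Hsp90b1 (1.15, 1.37 and 0.27).

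In large gene programmes of growth and upkeep the shares lay on both sides of those of all genes, 11.6% higher and 12.5% lower. Ribosome biogenesis counted 5 rises, with Nop58, Ncl and Npm1 among them, and 8 falls, with Bysl among them, in 39 (12.8% and 20.5%). Mitosis genes counted 7 rises and 5 falls in 37 (18.9% and 13.5%). The spindle kinase Ttk rose by 1.68, 1.48 and 0.06 and the motor Kif11 by 1.20, 1.06 and 0.00, while Plk1, a kinase of mitotic entry, fell from 7.67, 7.13 and 6.59 to 7.17, 5.92 and 5.91 with overlapping groups. Endoplasmic reticulum chaperones counted 5 rises and 0 falls in 25, heat-shock proteins 4 and 2 in 18, and proteasome subunits 2 and 3 in 34. Iron genes counted 4 rises, among them Tfrc and Lcn2, and 2 falls in 16 (25.0% and 12.5%). Of 43 tested cytosolic ribosomal protein genes 1 was called (2.33%), Rpl14, which fell by 0.67 on the log2 scale.

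Other lists had 6 or fewer rises. Their shares are to be read against 11.6% higher and 12.5% lower over all genes. TGF-beta, BMP and Smad genes counted 4 rises (15.4%) and 0 falls in 26. Among them Skil, a brake on Smad proteins, rose by 1.25, 1.19 and 0.55. EGF family ligands and receptors counted 3 (30.0%) and 0 in 10, antigen presentation 3 (27.3%) and 0 in 11 and adhesion molecules 2 (25.0%) and 0 in 8. Sterol and fatty acid synthesis counted 4 and 4 in 30 (13.3% each), and matrix and integrin genes 4 and 4 in 28 (14.3% each). The tricarboxylic acid cycle with fatty acid oxidation counted 4 and 5 in 35 (11.4% and 14.3%). C/EBP and stress transcription factors counted 6 and 1 in 30, with Cebpg up by 1.35, 1.19 and 0.73. The faller was Klf2, from 5.50, 5.04 and 5.27 to 4.58, 4.21 and 4.58.

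No gene fell in the unpaired test, and the paired falls were modest. Of the 15 largest that the rule for named genes took, Ttr and Ramp3 fell by at least 2-fold in every pair. Ttr, the thyroid hormone carrier transthyretin, went from 7.16, 7.84 and 8.25 to 4.98, 6.36 and 7.15, 3.01-fold, with an SE of 0.23 log2 in the paired fit. Replicate 1 was the lowest array and replicate 3 the highest in both groups, whose nearest arrays (7.16 and 7.15) almost touch. Another of its probe sets differed by over 1.5-fold. Ramp3, a partner of the calcitonin-receptor-like receptor, went from 6.89, 7.15 and 7.13 to 5.61, 6.00 and 6.06, 2.24-fold, with near-equal differences of -1.28, -1.14 and -1.07.

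The other large falls were of varied function. Guca2b, which encodes uroguanylin, the peptide that drives intestinal fluid secretion, went from 9.29, 9.71 and 9.78 to 7.61, 8.72 and 9.11. Hfe, a regulator of iron sensing, went from 7.55, 6.72 and 6.78 to 5.90, 5.69 and 6.18. Gjb1, the gap-junction protein connexin 32, went from 5.88, 5.61 and 5.56 to 4.89, 4.14 and 4.67. The water channel Aqp1 went from 7.41, 6.75 and 6.51 to 6.08, 5.54 and 5.79, and the claudin Cldn9 from 7.59, 6.86 and 6.70 to 6.20, 5.49 and 6.17. Cyp2d26 and Dio1, a cytochrome P450 and the deiodinase of thyroxine, fell 2.28-fold and 2.17-fold with some LPS arrays below log2 4. In all 7 of these genes the 3 LPS arrays lay below the 3 unstimulated ones. The mitochondrial genes Polrmt, Cox7a1 and Txnrd2, the peroxisomal Pex16, Abhd14a and Fam220a made up the rest, at 2.06-fold to 2.20-fold. Other probe sets gave 0.05 for Fam220a, -0.40 for Polrmt and up to -0.36 for Txnrd2, and the arrays of Abhd14a overlapped between groups.

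**Figure D5:**
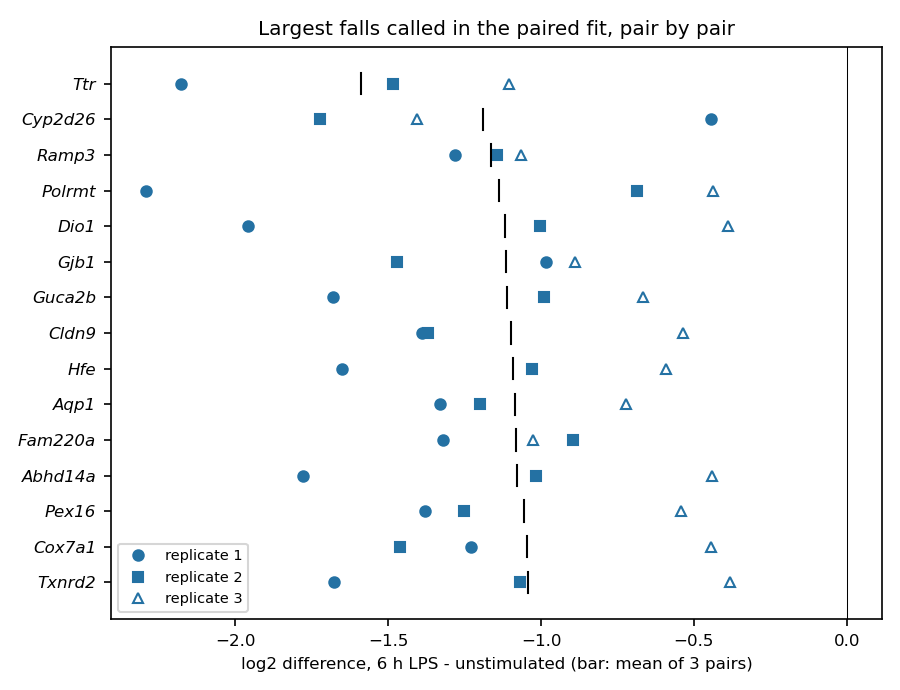
Log2 difference (6 h LPS minus unstimulated) in each replicate pair for the 15 largest falls called in the paired fit, with a bar at the mean of 3 pairs. All 45 points lie left of 0, and in most genes the open triangle of replicate 3 lies nearest to 0, as for Polrmt with -2.29, -0.69 and -0.44.

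Of 14 tested brush-border and enterocyte function genes 4 fell (28.6%, against 12.5% of all genes), none rose and 10 did not pass, with a median of -0.27. The microvillus protein villin (Vil1) went from 8.25, 8.27 and 8.29 to 7.56, 7.62 and 8.15. The brush-border protease Mep1a went from 7.69, 7.52 and 7.63 to 6.50, 7.01 and 7.26. The list's other falls were Myo15b and Cdhr2, with overlapping groups. Of 8 tested epithelial lineage factors 1 fell (12.5%, the share of all genes), Hnf4a, the nuclear receptor of the enterocyte programme, from 10.11, 9.29 and 9.46 to 9.02, 8.71 and 8.91. Of 11 keratin and barrier genes 2 fell (18.2%), Sprr1a and Krt18, by 0.62 and 0.39 on the log2 scale. Junction genes counted 1 rise, Tjp1 (5.26%, against 11.6% of all genes), and 2 falls, Crb3 and Cldn4 (10.5%), in 19.

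Of 29 tested ATF4 and amino acid stress genes 7 fell (24.1%, against 12.5% of all genes) and 0 rose (median -0.33), among them Chac1, from 8.65, 7.85 and 7.81 to 7.33, 7.26 and 7.68, and the serine enzyme Shmt2, by 0.73, 0.47 and 0.53 lower. Respiratory chain subunits counted 7 falls and 0 rises in 55 (median -0.19), a share of 12.7% that is near that of all genes. Ndufs8 of complex I was the largest, from 13.39, 12.84 and 13.13 to 12.62, 12.45 and 12.58. DNA replication genes counted 5 falls (11.9%) and 1 rise in 42 (median -0.27), with the ligase Lig1 and the clamp-loader subunit Rfc2 down by 0.62 and 0.65. NRF2 antioxidant genes counted 3 falls and 0 rises in 28, detoxification enzymes 4 and 1 in 24, lysosome and autophagy genes 4 and 1 in 30, glycolysis and hypoxia genes 2 and 1 in 24 and transporters 2 and 1 in 19. The shares that fell in these last lists were 8.33% to 16.7%, near or below those of all genes except for the detoxification enzymes. Prostaglandin and lipid mediator genes had no call in 3 tested.

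Of 19 immediate-early and AP-1 genes 2 rose and 3 fell, shares of 10.5% and 15.8% that lie near those of all genes. Ier3 rose by 0.38, 0.47 and 0.75 and Junb by 0.82, 0.37 and 0.50 with overlapping groups. Myc fell from 8.14, 7.99 and 7.74 to 7.10, 7.46 and 7.52, and Ier2 fell with overlap. Among MAP kinase phosphatases and Sprouty-type brakes 2 rose and 1 fell in 14 (14.3% and 7.14%, against 11.6% and 12.5% of all genes). The fall was Dusp1, from 8.62, 8.67 and 8.59 to 8.29, 8.10 and 8.16. Wnt target and stem-cell genes counted 2 rises, Cd44 and Bmi1, and 1 fall, Myc, in 15 (13.3% and 6.67%). Probe sets of Cd44 ranged from 0.06 to 0.78. Of the matrix-associated genes Ccn1 and Ccn2, targets of YAP, fell by 0.59 and 0.65, but probe sets of Ccn1 ranged from -0.59 to 0.24.

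The list counts moved with the replicates fitted. From replicates 2 and 3 alone the paired fit called 4 chemokines, 1 ubiquitin editor (Neurl3) and 1 gene, Casp4, that stands in the apoptosis and inflammasome lists, and no other list member. From replicates 1 and 2 alone, the paired fit called 9 of 22 ubiquitin editors higher and 2 lower. Of 17 mRNA decay regulators it called 7 higher and 0 lower. It called 11 of 29 ATF4 and amino acid stress genes, 6 of 14 brush-border genes and 5 of 55 respiratory chain subunits lower. In these lists 1 respiratory chain subunit was called higher. Over all 9431 genes that fit called 1403 higher and 2008 lower. Without 6 h LPS replicate 3 the paired fit called 14 of the ATF4 list and 13 respiratory chain subunits lower, beside 2465 of all genes. Both respiratory chain shares lay below those of all genes.

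Markers were checked against the label of the line. Of 12 small intestinal epithelial markers 7 lay below log2 4 on all 6 arrays, among them Epcam, Cdh1, Krt19, Cdx1 and Cdx2, while Krt8, Krt18, Vil1, Hnf4a and Elf3 were present. The summed linear level of the 12 was 13650 to 19227 without and 11289 to 17855 with LPS, overlapping between groups. Of 15 macrophage and dendritic markers 12 lay below log2 4, Ptprc, Adgre1 and Itgam included, and Csf1r, Cd68 and Spi1 reached it on some or all arrays. Csf1r was bright, at 10.10, 11.06 and 11.21 without and at 9.35, 10.62 and 10.98 with LPS, a paired fall with overlapping groups. The summed linear level of the 15 was 1271 to 2498 without and 797 to 2152 with LPS. All 7 neutrophil and all 7 endothelial markers lay below log2 4 on the 6 arrays, as did 11 of 12 fibroblast markers, all but Vim. The summed linear level of the fibroblast list, nearly all of it from Vim, was 10506 to 11744 without and 10590 to 11603 with LPS. Of lymphocyte markers 9 of 10 and of goblet, Paneth, tuft and enteroendocrine markers 11 of 13 lay below it. Ptprc, which marks all leukocytes, read at most 3.75 on the 6 arrays, with a mean of 2.71 without and 3.60 with LPS.

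The levels in tolerant cells, which share the unstimulated arrays as their control, are given for reference and without a test. Cxcl5 lay at 5.10, 5.81 and 6.51, overlapping its unstimulated range of 5.60 to 6.16. Neurl3 lay at 3.02, 3.06 and 2.93 and Tlr2 at 3.52, 3.34 and 3.58, all below log2 4. Ccl2 lay at 6.30, 6.71 and 6.90 and Cxcl1 at 9.43, 9.59 and 9.80, between both other groups. Casp4 at 5.14, 6.21 and 5.97, Tnfaip3 at 7.93, 7.34 and 7.57 and Lcn2 at 13.40, 12.86 and 12.99 lay in or above the range of the 6 h arrays. Neat1 lay lowest of the 3 conditions, at 7.94, 8.65 and 8.69.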

How the data were processed

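Total RNA of 9 samples was measured on Affymetrix mouse arrays. The deposited table holds linear intensity, computed by the authors with GCRMA according to the submitters' processing notes (version not given in these sources). The method compresses weak signals toward a floor, so weak probe sets cannot be ranked. Here log2 was taken with no pseudocount. The array has 45101 probe sets, of which 34945 carried 1 gene symbol in the platform annotation, 932 several, 9160 had none listed and 64 were controls. The brightest probe set by its 9-array mean stood for each of 18193 genes, and 9431 genes that reached log2 4 on 3 or more arrays were tested. A gene below log2 4 in 2 conditions could pass only through the other.

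Tests were two-sided, with limma 3.58.1 in R 4.3.3 (lmFit, eBayes without trend) on all 9 arrays: a mean per condition (6 residual degrees of freedom), and the same with replicate number as a block (4). Same-numbered arrays of every pair of conditions deviated together (r of 0.157 to 0.844), which meets the rule of over 0.1 used to call samples paired. Arrays of replicates 2 and 3 did so across numbers too (0.214 to 0.731), and the labels do not say what a number shares. Where all 3 arrays of the lower group were under log2 4, the fold is the higher mean against log2 4.

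Members and the 52 gene lists (1464 genes, 125 of them without a probe set of their own and not analysed here) were chosen with earlier results of these data known. The result of 1 list is not reported here. Named genes were all unpaired calls, the 15 largest paired rises and falls with 1 sign in every pair and no clone-like symbol, up to 4 called members of each list, and Tnf, Il6, Tlr4, Cd14, Ly96, Myd88, Nfkbia and Tnfaip3. Others are said to be chosen later or belong to the set of 16. Alternatives covered the filter, the probe-set rule, normalization, a floor, eBayes settings, the arrays fitted, the block and each array left out. The steps were tested on simulated data. The number of arrays limits the precision.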

Additional observations from a re-analysis of the deposited data

How the results depend on the processing

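The counts of calls depended on the replicate block, the arrays fitted and the filter, and the cause was not tested. The unpaired fit called 6 genes higher and 0 lower. It called 26 and 11 with no filter, 13 and 1 with the mean of all probe sets of a gene, 1092 and 1175 with the replicate block, 1104 and 893 with the replicate number as a random block (consensus correlation 0.505), and 1266 and 1477 with a block of replicate 1 against the others. Leaving out each array in turn gave 5 to 503 genes higher and 0 to 193 lower, the highest of both without 6 h LPS replicate 3. The paired fit called 1092 genes higher and 1175 lower. It called 86 and 57 with no filter, 8 and 0 on the 6 arrays compared, 6 and 0 on replicates 2 and 3 only, and 6 and 0 with no replicate block. Testing every probe set gave 2028 higher and 1171 lower. Leave-one-out paired fits gave 4 to 1582 genes higher and 0 to 2465 lower. The upper values came without 6 h LPS replicate 3. Without unstimulated replicate 1 the counts were 12 and 0, without unstimulated replicate 2 they were 8 and 0, without 6 h LPS replicates 1 and 2 they were 11 and 0 and 9 and 0, and without tolerant replicates 1, 2 and 3 they were 441 and 300, 11 and 1, and 28 and 3. Without replicate number 1 they were 6 and 0, without number 2 they were 4 and 0, and without number 3 they were 1403 and 2008. Quantile normalization moved the paired split to 975 higher and 1650 lower. For single named genes, unpaired differences changed sign only with an array left out: over the arrays left out, Card10 ranged from -0.96 to 0.06 (without unstimulated replicate 1), Junb from -0.10 (without 6 h LPS replicate 1) to 1.09, and Csf1r from -0.82 to 0.012 (without 6 h LPS replicate 1). Outside the fits that left out 1 array or 1 replicate number, named genes kept direction and side of the threshold in 1681 of their unpaired values. They passed newly in 441 and no longer passed in 2. Of the paired values 1142 kept both, 651 no longer passed and 3 passed newly. These tallies include the fits on the 6 arrays compared and on replicates 2 and 3 only. Signal near the floor limits all genes below log2 4.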
